A study of Homo sapiens with 8 samples.

Results

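The transcripts of 9 enzymes of serine synthesis and folate-bound one-carbon metabolism were followed in Rh41 cells with and without knockdown of G9a. The 9 are PHGDH, PSAT1, PSPH, SHMT1, SHMT2, MTHFD1, MTHFD2, MTHFD1L and ALDH1L2. They were chosen by gene symbol from a table of 60234 genes, each matched a single identifier, and all 9 were among the 15092 genes tested, those averaging 1 CPM or more over the 8 libraries. G9a, a histone methyltransferase that marks histone H3 at lysine 9, has been reported to activate the serine pathway in cancer cells. Rh41 is an established human line of alveolar rhabdomyosarcoma, a muscle-like soft-tissue tumour, and it is labelled positive for the PAX3-FOXO1 fusion in both groups. The 4 control libraries and the 4 libraries labelled siG9a carry replicate numbers 1 to 4. The series title speaks of shG9a where the sample labels speak of siG9a, and the reagent and the time after its delivery are not given in the sources used here. Each library was made by 3′ end sequencing, which reads the tail end of polyadenylated transcripts, so CPM (reads of a gene scaled to a common library total) can be compared between genes without a correction for length.

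Cells make serine from the glycolytic intermediate 3-phosphoglycerate. PHGDH oxidises it, PSAT1 transfers an amino group to the product, and PSPH removes the phosphate. Serine hydroxymethyltransferases then move a carbon unit from serine to tetrahydrofolate, leaving glycine. SHMT2 does this in mitochondria and SHMT1 in the cytosol. In mitochondria MTHFD2 and MTHFD1L carry the unit on to formate, which leaves for the cytosol, and ALDH1L2 can instead oxidise it to carbon dioxide. In the cytosol the trifunctional MTHFD1 takes up formate for purine and thymidylate synthesis. Several of these genes are known targets of the stress-response factor ATF4.

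Depth ran from 1458825 to 1938665 reads per library, between 17382 and 18356 genes had reads, and 1 read was worth 0.516 to 0.685 CPM. EHMT2, which encodes G9a, was at 57.6, 68.1, 87.3 and 88.3 CPM in control replicates 1 to 4 and at 19.6, 35.1, 33.1 and 58.5 CPM in siG9a. It was lower in 4 of 4 pairs of equal number, at 34.0%, 51.6%, 37.9% and 66.3% of the control. Across pairs, siG9a replicate 4 was just above control replicate 1. The log2 difference of −1.10 ± 0.31 (SE) had a limma adjusted p of 0.191, or 0.000472 in the paired fit that takes the replicate number as a block. A two-sided exact permutation test gave p = 0.0571, where 4 against 4 can reach 0.0286.

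Both libraries numbered 3 stood apart, and this touches several of the 9 enzymes. MYOD1, the muscle master regulator that marks rhabdomyosarcoma, was at 95.3 CPM in control replicate 3 and at 817 to 864 CPM in the other controls. In siG9a it was at 127.9 CPM in replicate 3 and at 608 to 839 CPM elsewhere. The neurofilament gene NEFM ran the other way, at 8046 and 7625 CPM in the replicate 3 libraries and at only 155.6 and 181.6 CPM in the replicate 1 libraries. Over 8 rhabdomyosarcoma markers the summed level was 237 to 1576 CPM in control and 251 to 1332 CPM in siG9a. Over 8 neural markers it was 187.1 to 9615 CPM and 223 to 8936 CPM, nearly all of it NEFM and NEFL. The 8 fibroblast markers summed to 118.1 to 409 CPM in control and 51.9 to 323 CPM in siG9a, and the 8 epithelial markers to 10.3 to 80.5 CPM and 24.6 to 45.1 CPM. No listed marker was at 0 in all 8 libraries, and the epithelial marker EPCAM had a single read in each of 2 libraries. With the block 3 of 7 tested rhabdomyosarcoma markers were called lower in siG9a, as were 1 of 5 fibroblast and 1 of 4 epithelial markers, and 0 of 5 neural markers were called by limma, where 6.52% of all genes were called lower. Desmin (DES), a muscle filament, was among the muscle markers, at 226 to 248 CPM in controls and 40.6 to 150.8 CPM in siG9a outside replicate 3. In replicate 3 it was at 47.4 CPM in control and 13.7 CPM in siG9a, so the groups overlapped. MYL4 of the same list did not overlap, at 11.1 to 77.5 CPM in control and 0.57 to 5.74 CPM in siG9a. MYOD1, at the values above, did overlap. The part of these markers in the differences below was not tested. In bulk RNA, fewer cells of a type and less RNA per cell cannot be told apart.

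The comparison of siG9a with control asked whether these enzymes moved with the knockdown. SHMT2, the most abundant of the 9, was 1.76-fold lower in siG9a and MTHFD2, the next enzyme in mitochondria, was 1.75-fold higher. Each difference had the same sign in 4 of 4 pairs, as did those of PHGDH (lower) and SHMT1 (higher), 4 of 9 enzymes beside 30.2% of all genes (15.3% lower and 14.9% higher). The 3 serine synthesis enzymes were lower on average, and MTHFD1 and MTHFD1L were nearly level, all 5 within the unpaired spread of the libraries. For PHGDH the paired interval, −0.89 to −0.10 in log2, left out 0, though its limma adjusted p was 0.101. By limma without a block, 0 of the 9 passed an adjusted p of 0.05, as did 0 of 15092 genes (percent called 0). At an unadjusted p under 0.05, 2 of the 9 stood beside 12.5% of all genes, and 4 of the 9 beside 25.5% with the block. With the replicate number as a block 2 of 9 were called, SHMT2 lower and MTHFD2 higher, beside 11.4% of all genes (6.52% lower and 4.86% higher). For 9 genes that background corresponds to about 1 call, so the count of 2 does not set the enzymes apart. Without a block edgeR called 0 of the 9 and DESeq2 called 1, SHMT2, beside 1.93% of all genes. Limma with array weights, which let libraries differ in reliability, also called SHMT2 alone of the 9, beside 2.89% of genes. With a block edgeR and DESeq2 both called SHMT2 and MTHFD2, beside 11.3% and 6.42% of genes. The median log2 difference of the 9 was −0.38, beside 0.01 over all genes, with 3 positive and 6 negative.

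**Figure D1:**
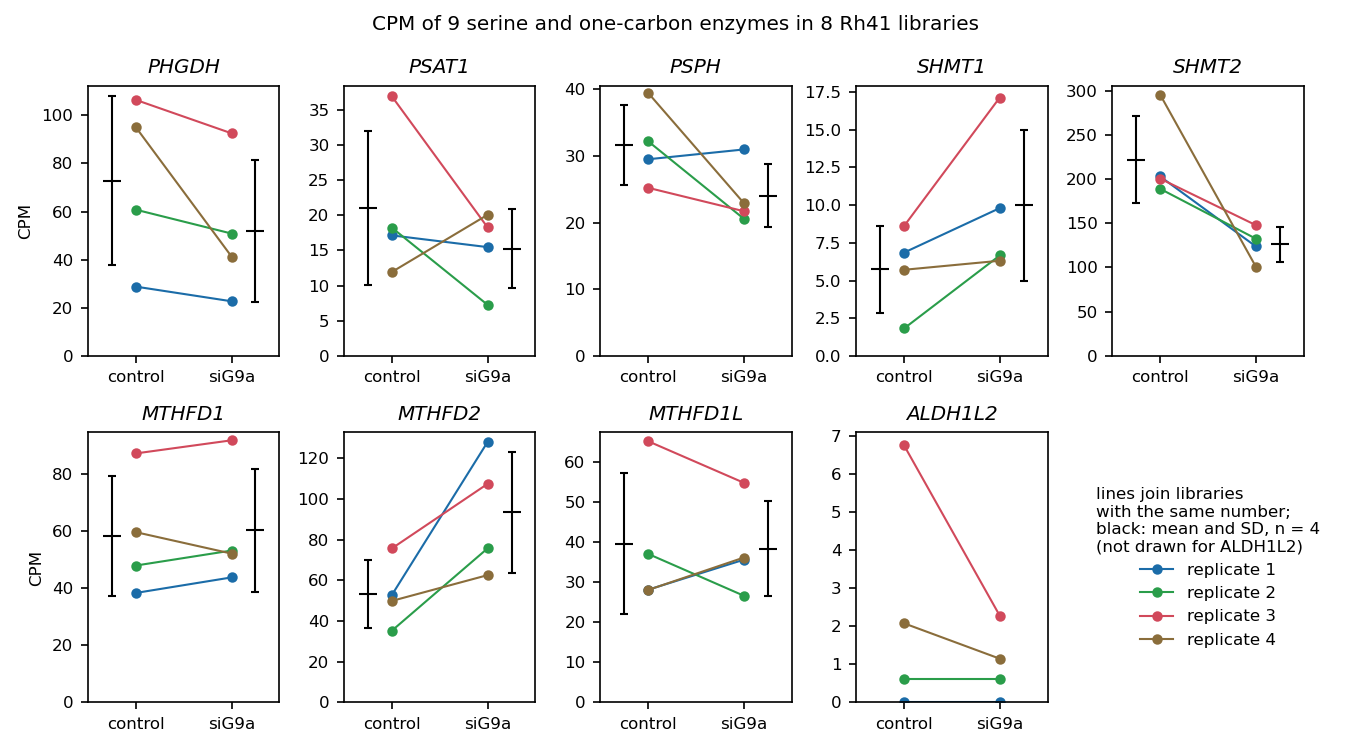
Normalised level (CPM, vertical axes starting at 0) of each of the 9 enzymes in the 4 control and 4 siG9a libraries. Lines join libraries of equal replicate number, and black marks give the group mean and SD (n = 4 each), not drawn for ALDH1L2. SHMT2 lies at 189.0 to 295 CPM in control and at 100.9 to 147.9 CPM in siG9a, and MTHFD2 rises along all 4 lines.

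In order of mean level over the 8 libraries, SHMT2 came first at 174.1 ± 61.8 CPM (SD, n = 8). It was followed by MTHFD2 at 73.4 ± 30.9, PHGDH at 62.3 ± 32.1, MTHFD1 at 59.3 ± 19.8, MTHFD1L at 38.9 ± 13.9 and PSPH at 27.8 ± 6.41 CPM. PSAT1 at 18.2 ± 8.62, SHMT1 at 7.86 ± 4.41 and ALDH1L2 at 1.69 ± 2.22 CPM closed the order. SHMT2 was in the top 6.73% of the genes tested and ALDH1L2 only in the top 90.7%. This order pools both groups, and the place of MTHFD2 differed between them. In control MTHFD2 averaged 53.4 CPM, beside 72.7 for PHGDH and 58.4 for MTHFD1, and exceeded each in 1 of 4 libraries. In siG9a it averaged 93.4 CPM, beside 51.8 and 60.3, and exceeded both in 4 of 4. PHGDH exceeded MTHFD1 in 3 of 4 control and 1 of 4 siG9a libraries, and in each group these neighbours lay within their spread. SHMT2 was above MTHFD2 in 7 of 8 libraries, the exception being siG9a replicate 1.

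PHGDH (ENSG00000092621), which commits carbon to serine, was at 28.8, 60.8, 106.4 and 95.02 CPM in control replicates 1 to 4 and at 22.7, 50.8, 92.5 and 41.3 CPM in siG9a. Replicate 1 was lowest and replicate 3 highest in both groups, and the groups overlapped widely. The means were 72.7 ± 35.1 and 51.8 ± 29.5 CPM (SD, n = 4 each). PHGDH was lower in 4 of 4 pairs, at 78.8%, 83.7%, 86.9% and 43.5% of the control of equal number. The log2 difference was −0.49 ± 0.45 (SE), with a 95% interval from −1.47 to 0.49 and a limma adjusted p of 0.710. The paired interval was −0.89 to −0.10 and the limma adjusted p 0.101. The paired difference was −0.26 without pair 4, and with 1 library left out the unpaired difference ran from −0.87 (without control replicate 1) to −0.16 (without siG9a replicate 1).

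PSAT1 (ENSG00000135069), the aminotransferase, was at 17.1, 18.2, 36.9 and 11.9 CPM in control and at 15.5, 7.26, 18.3 and 20.1 CPM in siG9a. Control replicate 3 stood above the other 3 controls, which ran into the siG9a range, and pair 4 went up where the other 3 went down. PSAT1 averaged 21.1 ± 10.9 and 15.3 ± 5.66 CPM (SD, n = 4 each), on 12 to 60 reads per library. The log2 difference was −0.41 ± 0.40 (SE), with an interval from −1.27 to 0.46 and a limma adjusted p of 0.730. It shrank to −0.11 without control replicate 3 and to −0.11 without siG9a replicate 2.

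PSPH (ENSG00000146733), the phosphatase that releases serine, was at 29.5, 32.2, 25.2 and 39.5 CPM in control and at 30.95, 20.6, 21.7 and 22.9 CPM in siG9a. Unlike PHGDH it was lowest in replicate 3 among the controls. The siG9a replicates 2 to 4 lay below every control and replicate 1 lay among them. The means were 31.6 ± 5.99 and 24.0 ± 4.70 CPM (SD, n = 4 each). The log2 difference was −0.38 ± 0.25 (SE), with an interval from −0.93 to 0.17 and a limma adjusted p of 0.580. Together the 3 serine synthesis enzymes summed to 75.4, 111.2, 168.5 and 146.4 CPM in control and to 69.1, 78.7, 132.5 and 84.3 CPM in siG9a.

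SHMT2 (ENSG00000182199), the mitochondrial serine hydroxymethyltransferase, was at 203, 189.0, 200.5 and 295 CPM in control replicates 1 to 4. In siG9a it was at 123.8, 132.6, 147.9 and 100.9 CPM. No siG9a library reached the lowest control. Such a lack of overlap was seen for 1 of the 9 enzymes and for 7.32% of all genes tested (3.45% lower and 3.88% higher). The 95% Wilson intervals from counting error also stayed apart, reaching down to 169.1 CPM in the controls and up to 167.0 CPM in siG9a, on 176 to 569 reads per library. The means were 222 ± 49.4 and 126.3 ± 19.6 CPM (SD, n = 4 each). The level was 61.0%, 70.1%, 73.8% and 34.2% of the control of equal number, so pair 4 joined the highest control to the lowest siG9a library. EHMT2 was least reduced in pair 4, at 66.3% of its control. SHMT2 and PHGDH fell most in that pair, and MTHFD2 and SHMT1 rose least. Whether the enzymes follow EHMT2 from pair to pair was not tested.

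SHMT2 fell by 0.80 ± 0.17 on the log2 scale (SE) with the block, at a limma adjusted p of 0.00249. This SE draws on the variance of other genes and is not the spread of the 4 pairs alone. The pairs differed by −0.71, −0.51, −0.44 and −1.54 in log2. The replicate number itself held only 1.77% of the sum of squares of SHMT2. Without the block the difference was −0.80 ± 0.21 (SE), with an interval from −1.26 to −0.34 and an adjusted p of 0.171. With both replicate 3 libraries left out and no block, it was −0.92 at a limma adjusted p of 0.0392, where 2.74% of genes were called. Without pair 4, the blocked difference was −0.55 at an adjusted p of 0.0235.

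SHMT1 (ENSG00000176974), the cytosolic counterpart, was at 6.85, 1.82, 8.61 and 5.71 CPM in control and at 9.80, 6.66, 17.1 and 6.31 CPM in siG9a. These values rest on 3 to 30 reads per library. It was higher in 4 of 4 pairs, though siG9a replicates 2 and 4 lay within the control range. The log2 difference was 0.74 ± 0.46 (SE), with an interval from −0.27 to 1.74, a limma adjusted p of 0.553 without the block and 0.190 with it. SHMT2 exceeded SHMT1 by 29.6, 103.8, 23.3 and 51.7 times in control and by 12.6, 19.9, 8.63 and 15.997 times in siG9a, so the ratio was lower in every siG9a library than in any control. The control ratios rest on as few as 3 SHMT1 reads. SHMT2 alone already did not overlap between the groups, so this ratio is a description and was given no test.

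MTHFD2 (ENSG00000065911), the mitochondrial methylenetetrahydrofolate dehydrogenase and cyclohydrolase, was at 52.8, 35.2, 75.6 and 49.9 CPM in control. In siG9a it was at 127.9, 75.7, 107.3 and 62.5 CPM. Control replicate 3 lay above siG9a replicate 4 and level with siG9a replicate 2, so the groups overlapped. The means were 53.4 ± 16.7 and 93.4 ± 29.7 CPM (SD, n = 4 each). Within pairs the siG9a library reached 242%, 214.7%, 141.9% and 125.4% of its control. MTHFD2 rose by 0.79 ± 0.18 on the log2 scale (SE) with the block, at a limma adjusted p of 0.00560. Without the block it was 0.79 ± 0.29 (SE), with an interval from 0.16 to 1.42 and an adjusted p of 0.296. The blocked call was lost without pair 1 (0.63, limma adjusted p 0.0651) and without pair 2 (0.69, adjusted p 0.0746). With the replicate 3 libraries left out and no block, the difference was 0.89 at a limma adjusted p of 0.104.

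**Figure D2:**
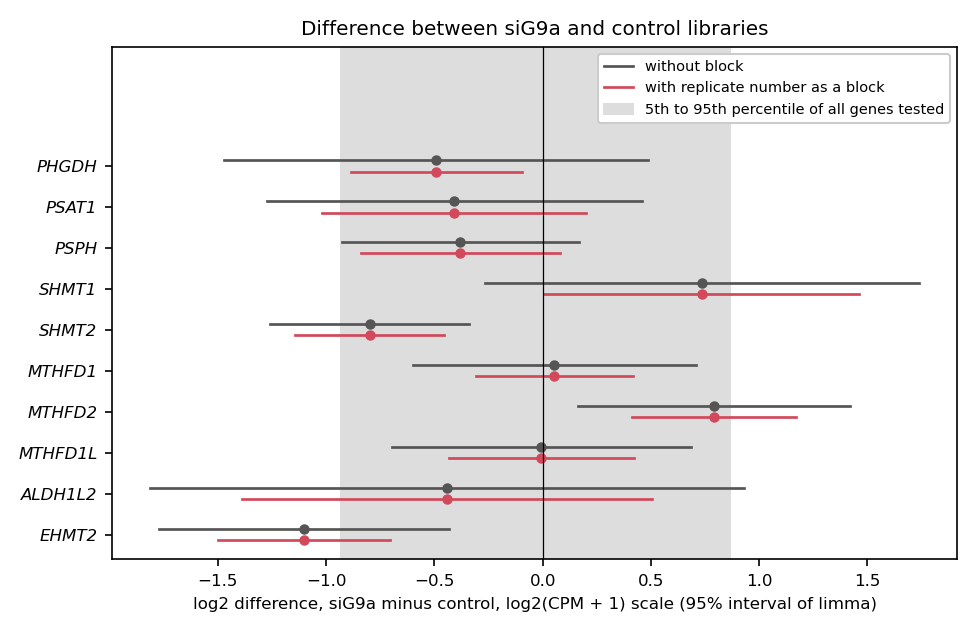
Log2 difference between siG9a and control on the log2(CPM + 1) scale for the 9 enzymes and EHMT2, with 95% intervals of limma without a block (grey) and with the replicate number as a block (red). The grey band spans the 5th to 95th percentile of all genes tested, −0.93 to 0.86, and SHMT2 at −0.80 and MTHFD2 at 0.79 both lie inside it.

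Set beside each other in the same library, SHMT2 and MTHFD2 stood in a lower ratio in siG9a. SHMT2 exceeded MTHFD2 by 3.84, 5.36, 2.65 and 5.93 times in control and by 0.968, 1.75, 1.38 and 1.61 times in siG9a. All 4 siG9a ratios were below all 4 control ratios. This ratio was formed after both genes' values were known, so it is a description and was given no test. As a share of the summed level of the 9 enzymes, SHMT2 made up 50.2%, 44.7%, 32.7% and 50.3% in control and 30.2%, 35.4%, 26.7% and 29.4% in siG9a. Here control replicate 3 fell below siG9a replicate 2. The sum over the 9 averaged 507 ± 108.3 CPM in controls and 420.4 ± 93.0 CPM after knockdown (SD, n = 4 each), a difference within the spread of the libraries.

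**Figure D3:**
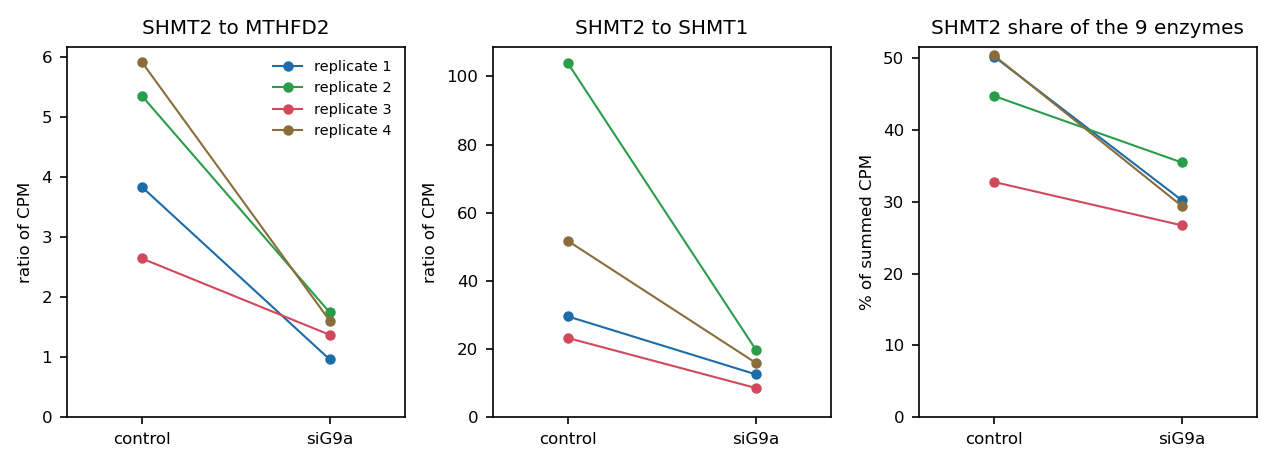
Ratio of SHMT2 to MTHFD2 (left), ratio of SHMT2 to SHMT1 (middle) and SHMT2 as a percentage of the summed CPM of the 9 enzymes (right), by library, with lines joining equal replicate numbers. The SHMT2 to MTHFD2 ratio is 2.65 to 5.93 in control and 0.968 to 1.75 in siG9a.

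MTHFD1L (ENSG00000120254), the mitochondrial formyltetrahydrofolate synthetase that acts after MTHFD2, was at 28.1, 37.1, 65.2 and 28.0 CPM in control and at 35.6, 26.6, 54.8 and 36.1 CPM in siG9a. Replicate 3 was highest in both groups, and 2 pairs went up and 2 went down. Its log2 difference was −0.01 ± 0.32 (SE), with an interval from −0.70 to 0.68 and a limma adjusted p of 0.996. MTHFD2 and MTHFD1L, successive enzymes of the same route, thus stood in a ratio of 1.88, 0.951, 1.16 and 1.78 in control and of 3.59, 2.84, 1.96 and 1.73 in siG9a, with siG9a replicate 4 inside the control range.

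MTHFD1 (ENSG00000100714), the cytosolic trifunctional enzyme, was at 38.4, 48.0, 87.3 and 59.7 CPM in control and at 43.8, 53.3, 91.9 and 52.2 CPM in siG9a. Libraries of equal number lay close together, within 87.4% and 114.2% of the control. The log2 difference was 0.05 ± 0.30 (SE), with an interval from −0.60 to 0.71 and a limma adjusted p of 0.965, and with the block the interval narrowed to −0.31 to 0.42.

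ALDH1L2 (ENSG00000136010), the mitochondrial formyltetrahydrofolate dehydrogenase, was barely detected, with 23 reads over all 8 libraries. It was at 0, 0.610, 6.76 and 2.08 CPM in control and at 0, 0.610, 2.28 and 1.15 CPM in siG9a. A floor of 3 reads corresponds to 1.55 to 2.06 CPM, so only 3 libraries were above it, both of replicate 3 and control replicate 4. No difference between the groups was called, and the part of depth in this was not tested. Control replicate 3 alone held 11 of the 23 reads.

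How much a gene followed the replicate number set the 9 apart from one another. On the log2 scale the replicate number held 96.4% of the sum of squares of MTHFD1, 86.8% of ALDH1L2, 82.6% of MTHFD1L and 82.5% of PHGDH, where the median gene had 54.6%. For SHMT2 it held 1.77%, and the group held 75.4% where the median gene had 12.5%. MTHFD2 lay between, with 37.4% for the number and 50.3% for the group. PHGDH, SHMT1, MTHFD1, MTHFD1L and ALDH1L2 were highest in replicate 3 of both groups, the libraries with least MYOD1 and most NEFM. PHGDH and MTHFD1 were also lowest in replicate 1 of both groups, where NEFM was lowest. The part of the marker genes in these levels was not tested. Without the replicate 3 libraries and without a block, PHGDH differed by −0.59, PSAT1 by −0.22, PSPH by −0.44, SHMT1 by 0.68, MTHFD1 by 0.05 and MTHFD1L by 0.07 in log2, with limma adjusted p-values from 0.454 to 0.949.

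**Figure D4:**
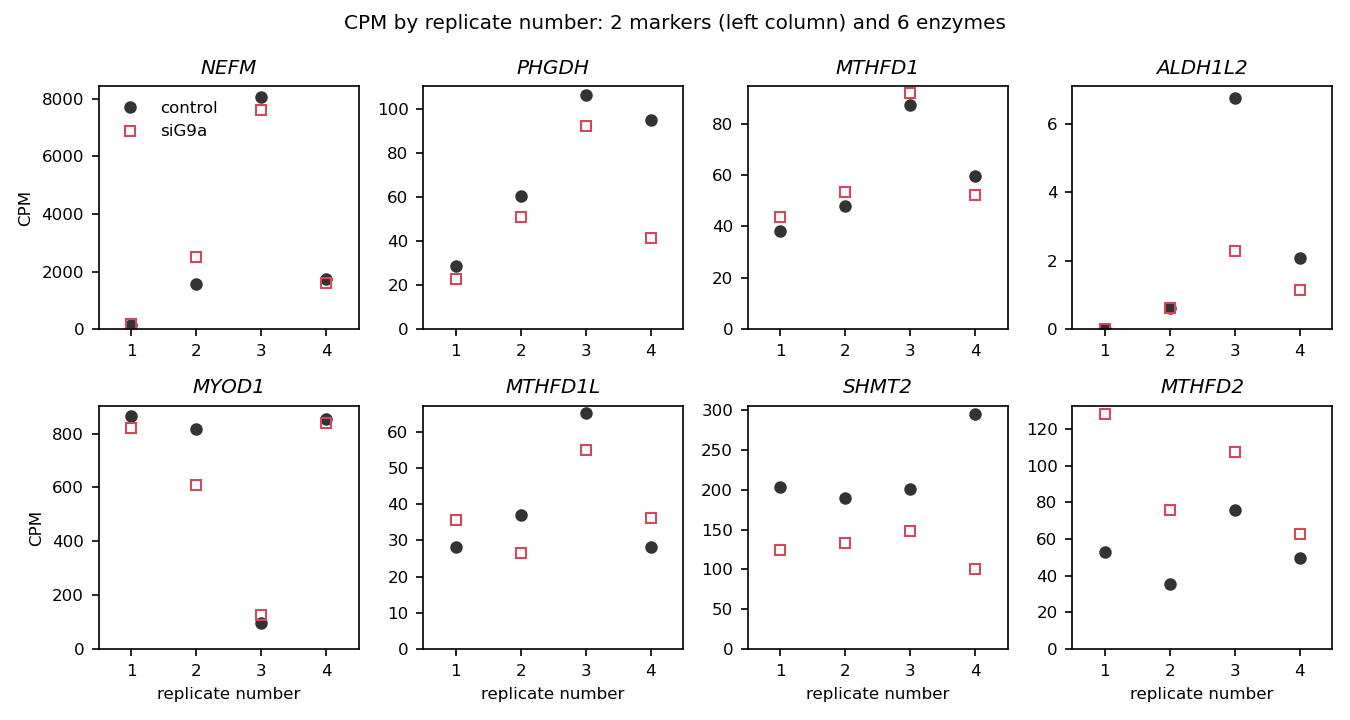
CPM by replicate number for the markers NEFM and MYOD1 (left column) and for 6 enzymes, in control (filled circles) and siG9a (open squares); all axes start at 0. PHGDH and MTHFD1 are lowest in replicate 1 and highest in replicate 3 in both groups, whereas SHMT2 is separated by group at every number.

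Reads could be shared with near-copies or overlapping genes to a different degree for each enzyme. Of 14 listed pseudogenes of the 9 enzymes, 4 had any read, with 12 reads in all. In GENCODE release 29 the exons of SHMT2 overlap NDUFA4L2 on the opposite strand, which had 3 reads over the 8 libraries, and an antisense gene, AC137834.2, for which no value was found. Those of MTHFD2 overlap SLC4A5, with 4 reads. ALDH1L2 overlaps C12orf45, which had 369 reads where ALDH1L2 had 23, and no strand setting of the counting is given in the sources used here. MTHFD1 overlaps ZBTB25, with 76 reads.

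The deposited data hold no sequence, so promoters were read from RefSeq to show what lies around the starts of these genes. RefSeq promoter entries (GRCh38.p14, 250 bases before to 50 after a start) matched 6 of the 9 enzymes, not SHMT2, PSPH or ALDH1L2. Both strands were searched for TGATGNAA, the core of the element bound by ATF4 with C/EBP partners, and for CACGTG, the E-box bound by MYC and related factors, which do not overlap each other in letters. The 6 enzymes have 9 entries, so counts of enzymes and the shares of entries given beside them are in unlike units. TGATGNAA occurred in MTHFD1L alone of the 6, and in 3.62% of all 35116 promoter entries. MTHFD1L has several overlapping entries, and from the start of an upstream entry its TGATGNAA match begins 24 bases after the start. CACGTG occurred in MTHFD1L and MTHFD1, and in 7.26% of all entries. The first line below is the stretch before the start of MTHFD2, the enzyme that rose in the paired fit (chr2:74198365-74198614, plus strand), which holds neither motif. The second is that of MTHFD1, which followed the replicate number most closely (chr14:64388103-64388352, plus strand), with its E-box in capitals. The third is a short stretch of MTHFD1L (chr6:150866346-150866375, plus strand) around its TGATGNAA match in capitals. A match is a description of letters and no evidence of binding.
MTHFD2: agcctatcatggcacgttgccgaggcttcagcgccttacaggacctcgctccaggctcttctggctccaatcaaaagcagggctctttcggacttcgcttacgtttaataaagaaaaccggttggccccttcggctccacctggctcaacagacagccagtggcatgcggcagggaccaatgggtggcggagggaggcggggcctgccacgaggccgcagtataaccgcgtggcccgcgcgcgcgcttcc
MTHFD1: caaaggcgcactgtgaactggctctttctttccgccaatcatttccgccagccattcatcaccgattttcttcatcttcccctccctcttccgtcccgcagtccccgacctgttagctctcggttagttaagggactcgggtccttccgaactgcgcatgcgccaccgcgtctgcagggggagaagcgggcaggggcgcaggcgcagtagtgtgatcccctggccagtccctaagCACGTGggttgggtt
MTHFD1L: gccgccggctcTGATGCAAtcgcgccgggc

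Other genes around the pathway were read in 5 lists, whose calls with the block stand beside 11.4% of all genes (4.86% higher and 6.52% lower). Genes of glycine cleavage and serine use had a median log2 difference of −0.01 over the 9 of 12 tested, where the median of all genes was 0.01. SPTLC2, a subunit of the enzyme that joins serine to palmitoyl-CoA in sphingolipid synthesis, averaged 49.97 ± 20.4 CPM in controls and 89.5 ± 15.9 CPM after knockdown (SD, n = 4 each). It was the 1 gene of this list called with the block (log2 difference 0.89, limma adjusted p 0.00148, against 0.227 without it). Of 15 folate enzymes and carriers tested, 0 were called by limma in either fit, and 0 had an unadjusted p under 0.05 in either, with a median of 0.11. MTHFS, which returns 5-formyltetrahydrofolate to the pool, had the smallest p among them (4.82 ± 3.32 and 7.96 ± 1.68 CPM, SD, n = 4 each, limma adjusted p 0.508). The thymidylate synthase gene TYMS was at 182.1 to 454 CPM over all libraries and differed by −0.16.

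Purine synthesis, the main user of cytosolic formyl groups, had a median difference of 0.11 over 10 genes. The 1 call with the block was ADSS, adenylosuccinate synthase, at 18.3 ± 7.86 and 31.6 ± 10.4 CPM (SD, n = 4 each, limma adjusted p 0.0300, against 0.362 without it). GART and ATIC, the enzymes that take the formyl groups, differed by 0.17 and 0.18 (log2), with limma adjusted p = 0.892 and 0.842. In the methionine cycle 8 of 12 genes were tested, with a median of 0.24 and 2 calls with the block, both higher. They were the catalytic and regulatory subunits of S-adenosylmethionine synthesis. MAT2A was at 49.0 ± 19.7 and 91.5 ± 21.7 CPM (SD, n = 4 each), and its limma adjusted p was 0.00316 in the paired fit, against 0.231 unpaired. MAT2B was at 13.9 ± 5.54 and 27.2 ± 4.11 CPM (SD, n = 4 each), and limma gave adjusted p = 0.0164 (paired) and 0.254 (unpaired). MAT2B did not overlap between the groups, as was so for 3.88% of all genes tested in the higher direction.

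Among 10 genes reported to regulate the pathway, 3 were called lower with the block and 0 higher, where 6.52% of all genes were called lower. They were ATF4, PKM and the knockdown target EHMT2 itself, without which 2 of 9 remain. ATF4 was at 718, 745, 890.4 and 713 CPM in control and at 462, 623, 636 and 568 CPM in siG9a. ATF4 did not overlap between the groups, as was so for 3.45% of all genes tested in the lower direction. Its log2 difference was −0.43, for which limma gave adjusted p = 0.0416 in the paired fit and 0.385 in the unpaired. PKM, the pyruvate kinase of glycolysis, was at 871 ± 266 and 514 ± 66.9 CPM (SD, n = 4 each), for which limma gave adjusted p = 0.00192 paired and 0.287 unpaired. MYC, the other regulator often tied to SHMT2, was at 3.65 to 25.2 CPM in control and at 3.61 to 15.4 CPM in siG9a. MYCN, also on the list, was at 2.46 to 13.7 CPM in control and at 6.28 to 29.9 CPM in siG9a. Its log2 difference was 0.65, with a limma adjusted p of 0.208 paired and 0.672 unpaired.

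**Figure D5:**
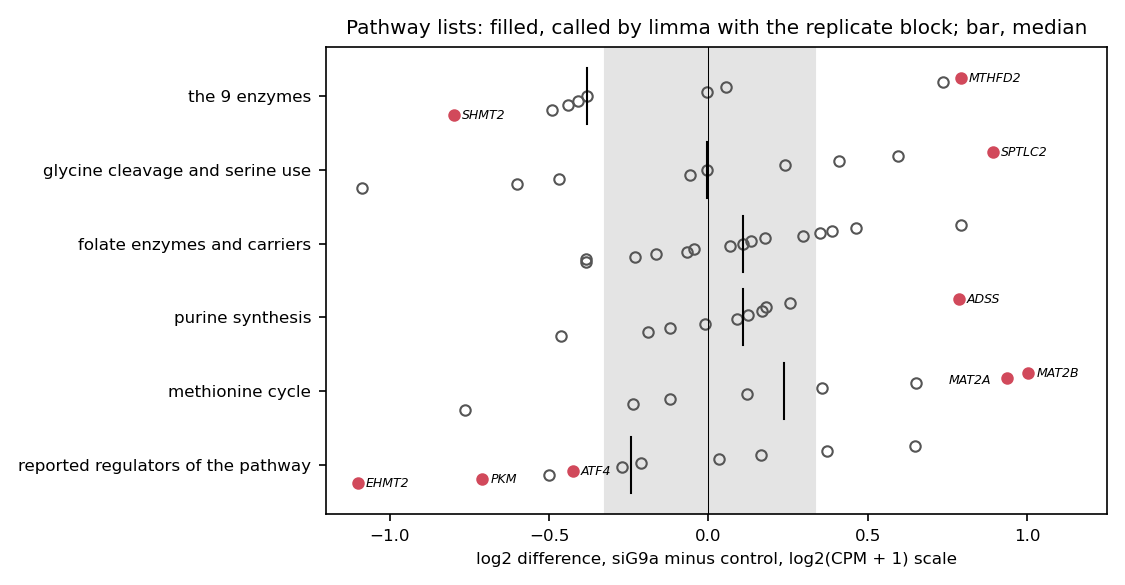
Log2 difference (siG9a minus control) of each tested gene of the 9 enzymes and of 5 lists around the pathway. Filled red points are called by limma with the replicate number as a block, black bars are list medians, and the grey band spans the 25th to 75th percentile of all genes tested (−0.32 to 0.33).

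The genes most like SHMT2 and MTHFD2 in their pattern were sought by Pearson correlation of log2(CPM + 1) over the 8 libraries, among the 8898 genes averaging 10 CPM or more. For SHMT2 these were UBE2F (r = 0.98), RPL9 (0.98) and PRKCSH (0.97). UBE2F was at 21.0 ± 1.91 CPM in controls and 14.99 ± 1.84 CPM after knockdown (SD, n = 4 each). RPL9, a ribosomal protein gene for which reads may be split with near-copies, was at 70.1 ± 10.1 and 44.5 ± 7.33 CPM and is uncertain. For MTHFD2 they were PDS5A (0.98), OXSR1 (0.97) and VIMP (0.96). PDS5A was at 86.0 ± 9.40 and 112.7 ± 12.0 CPM (SD, n = 4 each). All points share the same 8 libraries, and these values of r are a description, being the highest of those searched.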

How the data were processed

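Expression was measured in 8 libraries of Rh41 (4 control, 4 siG9a) by QuantSeq 3′ mRNA sequencing, single-end, per the labels' protocols. The submitters' processing notes name FastQC 0.11.8, Trim Galore, STAR 2.5.0a, HTSeq 0.8.0, edgeR 3.28, GRCh38 and hg19 without roles. The authors deposited CPM to 2 decimals, scaled per library. All non-zero values (100%) were whole multiples of 1 read within 0.006 CPM, so reads were recovered. All replicate pairs differed beyond counting noise (chi-square divided by its degrees of freedom was 5.90 to 28.7). The design text calls the replicates biological but does not say whether they were separate cultures, so p-values measure the spread between these libraries, which may be partly technical.

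The test was limma 3.58.1 (R 4.3.3) on log2(CPM + 1), group only, eBayes with trend, two-sided, over the 15092 genes averaging 1 CPM or more, Benjamini-Hochberg threshold 0.05. The pseudocount understates changes of low genes. The paired fit added the replicate number from the titles. Deviations of equal-numbered libraries correlated across genes at 0.50, 0.10, 0.67 and 0.13 for numbers 1 to 4. Each is above 0.1, the limit set for treating numbers as pairs, but number 2 only narrowly, and control replicate 2 correlated more with siG9a replicate 4 (0.14) than with siG9a replicate 2. The paired calls rest on this pairing, and the limma SE of a gene draws on the variance of other genes as well as its own. Alternatives included edgeR 4.0.16 and DESeq2 1.42.0 on the recovered reads. Scripts were tested on simulated data. Wilson intervals (95%) cover counting error only.

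The members and lists were chosen with earlier results of these data known. Named were the 9 enzymes, list genes called in either fit (otherwise the smallest p), and 3 genes most like each member called with the block. TYMS, GART, ATIC, MYC and MYCN were added for their roles after values were seen. Of 12, 18, 11, 12 and 10 listed genes, 12, 17, 10, 12 and 10 symbols were found.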

Additional observations from a re-analysis of the deposited data

Results flagged for a closer look

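SHMT2 in control replicate 4, at 295 CPM, lay far from the other 3 controls, which were at 189.0 to 203 CPM. Its gap to the nearest library was 0.869 of the range of the group, above Dixon's 95% critical value for 4 samples. Of 34 groups examined (17 of the named genes in 2 groups) this was the 1 case, where chance gives about 1.70. MYOD1, DES and MYC were not among the 17, and each stood apart in control replicate 3. There MYOD1 was at 95.3 CPM, beside 817 to 864 CPM in the other controls. DES was at 47.4 CPM beside 226 to 248 CPM, and MYC at 25.2 CPM beside 3.65 to 6.17 CPM. Without control replicate 4 and without a block the SHMT2 difference was −0.65 in log2, with a limma adjusted p of 0.385, against −0.80 and 0.171 with it. The rise in p was not particular to this library. The limma adjusted p was 0.402 without control replicate 2 (−0.87) and 0.349 without siG9a replicate 2 (−0.83). Among single libraries left out, it fell only without control replicate 3, to 0.0782 (−0.84).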

How the results depend on the processing

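Without the block, limma called 0 genes and 0 of the 9 enzymes. With the replicate block it called 1717 genes and 2 enzymes, with the replicate block and median-ratio scaling 1694 and 2. With the replicate block edgeR called 1709 and 2, and DESeq2 969 and 2. Without a block DESeq2 called 291 genes and 1 enzyme, array weights 436 and 1, and no filter on low values 18 and 0. Leaving out 1 library gave 0 to 300 genes (300 without control replicate 3, 2 without siG9a replicate 4) and 0 enzymes. Leaving out both replicate 3 libraries gave 413 genes and 1 enzyme, SHMT2. Under the replicate block with 1 pair left out, 951, 668, 1078 and 1393 genes were called without pairs 1 to 4, and 1 to 2 enzymes. SHMT2 was called in 8 of 8 blocked fits and 3 of 19 without a block, MTHFD2 in 6 of 8 and 0 of 19.

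EHMT2, at −1.10, was called in each blocked fit: replicate block −1.10, with median-ratio scaling −1.11, edgeR −1.10, DESeq2 −1.12, and −0.96, −1.155, −1.01 and −1.27 without pairs 1 to 4. Without a block it ran from −0.84 to −1.36 with 1 library left out and was not called. Signs turned only for differences near 0 or at the floor. MTHFD1 ran from −0.17 to 0.27 with 1 library left out, below 0 without control replicate 1 (−0.12), control replicate 2 (−0.02) and siG9a replicate 3 (−0.17). MTHFD1L ran from −0.19 to 0.26 with 1 library left out, above 0 without control replicate 3 and siG9a replicates 1, 2 and 4, and gave 0.017 with quantile normalization and 0.074 without replicate 3. In the replicate block it gave 0.15 and 0.074 without pairs 2 and 3. With 1 library left out ALDH1L2 ran from −0.88 to 0.11, the last without control replicate 3, and by tool it reached −1.19 (edgeR) and −1.25 (DESeq2). PSAT1 ran from −0.63 to −0.11 with 1 library left out. The cause was not tested. The block changed no call of the other 7 enzymes. SHMT1 rests on 3 to 30 reads per library and ALDH1L2 on 0 to 11, and the part of depth in their missing calls was not tested.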
